A study of Bos taurus with 8 samples.

Results

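The insulin-like growth factor system was examined in lung RNA from newborn calves. The genes considered were the ligands IGF1 and IGF2, the receptors IGF1R and IGF2R, and the binding proteins IGFBP1 to IGFBP6, chosen as 10 gene symbols. A gene entered when at least 1 probe of the array carried an accession that matched it, and 9 of the 10 did, with 32 probes. IGF1R had no matched probe and was not analysed here. Of the 32 probes, 31 were bright enough to be tested, so all 9 genes stood among the 9867 genes measured.

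The samples were lungs of 8 Holstein calves, 1 array per animal, with total RNA labelled with Cy3. A group of 4 cloned calves had respiratory failure and the other 4 were naturally conceived and healthy. All sample titles give an age of 4 days, whereas the series text places the death of the clones within 4 days of birth. The sources used here do not state the donor cells of the clones, the recipient cows or the age of each clone at death. The animals of a group are labelled as separate replicates, so p-values measure the spread between these animals, and cloning, the lung disease and death from it cannot be told apart in this design. Signals are given as log2 values in which 0 is the 75th percentile of all probes of the same array, so a value of 1 is a 2-fold brighter signal than that percentile.

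IGF1 and IGF2 are small secreted growth factors related to insulin. Both signal through the receptor tyrosine kinase IGF1R, while IGF2R, which also sorts enzymes to lysosomes, takes IGF2 up for degradation and does not signal as a growth receptor. In blood and tissue the ligands are held by a family of binding proteins that carry them, keep them from the receptor or bring them near it. In the fetal lung the ligands come largely from mesenchyme and act on epithelium and vessels. IGF2 and IGF2R are imprinted genes in cattle, and disturbed imprinting of both has been studied in overgrown calves from assisted reproduction.

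On each array 78.8% to 83.5% of spots exceeded background clearly, and 0 spots were saturated. All clone arrays came from 1 slide and all normal arrays from another, so slide and group cannot be told apart. The 7 spike-in controls used were all higher on clone arrays relative to the 75th percentile, by a median of 0.68, so a change shared by all lung transcripts is not measured on this scale. The lung markers SFTPC, SFTPB and AGER were well above background in all 8 calves. Clone 1 differed from the other clones, and was like the normal calves, in its Y-linked genes: their signal (DDX3Y, USP9Y) exceeded background clearly in clones 2, 3 and 4, but not in clone 1 or in the 4 normal calves. That signal was thus uneven between the groups in the comparison of all 8 calves. Clones 1 and 3 had the lowest array weights, 0.115 and 0.0985, against 1.46 to 4.44 for the other 6 arrays. Each animal was left out in turn. Results without clone 1 are given in most detail, a choice made after seeing the data. Its removal raised the number of changed probes from 63 to 2562, and that of clone 3 raised it to 451. In bulk tissue, fewer cells of a type and less RNA per cell cannot be told apart.

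None of the 9 genes passed the test between all 4 clones and the 4 normal calves (limma, Benjamini-Hochberg adjusted over 35636 probes, threshold 0.05). Over all genes 0.182% passed. The 2 genes nearest to the threshold were IGFBP5 and IGF1, both with an unadjusted p under 0.05 and both higher in every clone than in any normal calf. An unadjusted p under 0.05 with a higher level in clones was found for 2 of 9 members and for 6.37% of all genes. Groups that did not overlap, with the clones higher, were found for 2 of 9 members and for 5.05% of all genes. Of the 9 differences 7 were positive and 2 negative, with a median of 0.43, beside a median of -0.02 and 48.4% positive over all genes. The plot of values by animal shows that most members differed more among clones than among normal calves.

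**Figure D1:**
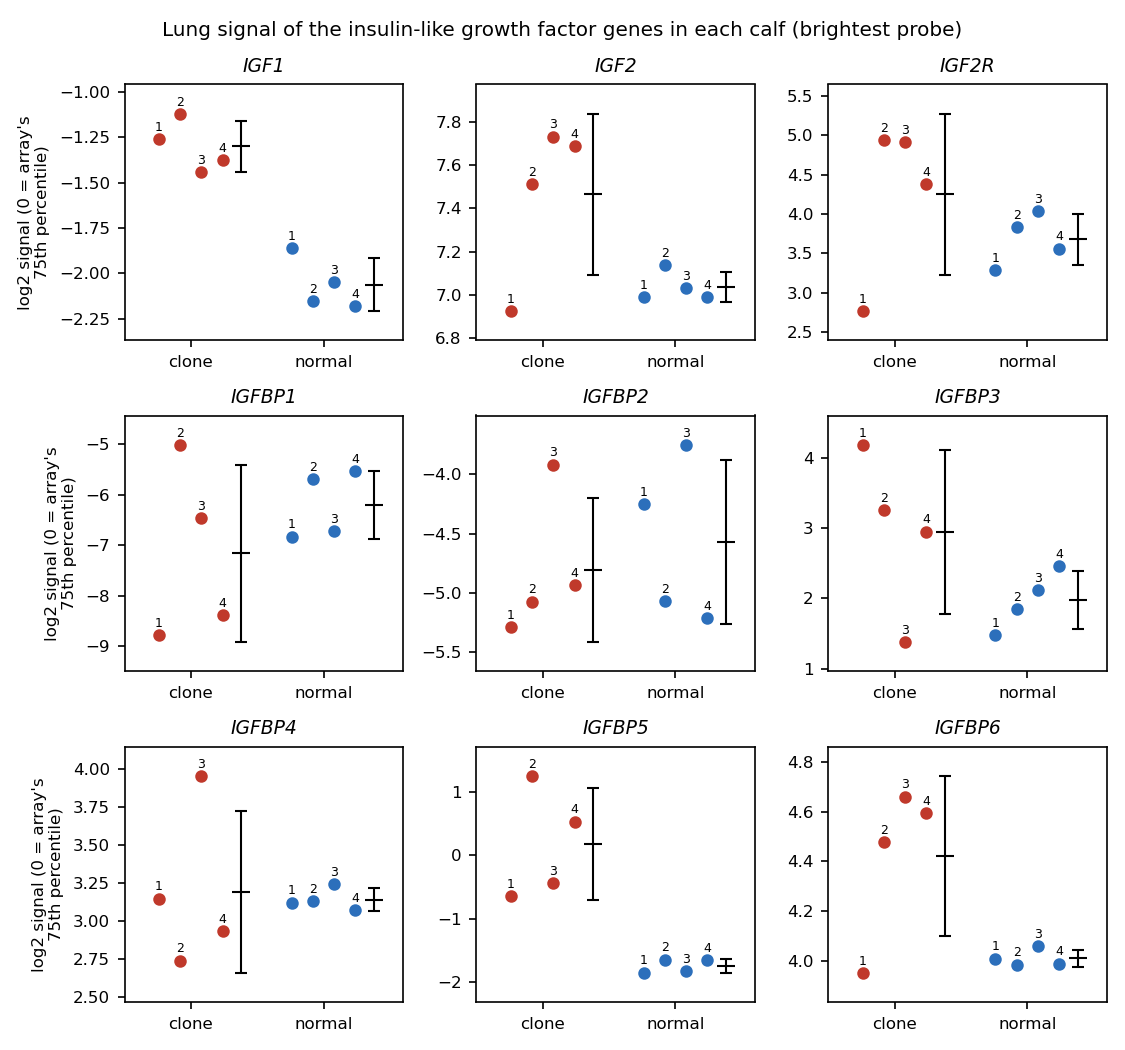
Log2 signal of the brightest probe of each of the 9 genes in 4 clones (red) and 4 normal calves (blue), with animal numbers beside the points and the mean ± SD as a bar. IGFBP5 and IGF1 do not overlap between the groups on this scale, but IGF1 does with spike-in centring and with normexp and 75th percentile centring. Clone 1 is below all normal calves for IGF2, IGF2R, IGFBP1, IGFBP2 and IGFBP6, or 5 of 9 members, beside 36.9% of all genes. For IGF2 and IGFBP6 this placement is lost with median centring and with normexp and 75th percentile centring. For IGFBP2 it is lost with quantile normalization, with normexp and in the authors' value table.

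The ligand IGF1 measured -1.26, -1.12, -1.44 and -1.38 in clones 1 to 4 on its brightest probe and -1.86, -2.15, -2.05 and -2.18 in normal calves 1 to 4. The lowest clone was above the highest normal calf, and neither group was widely spread (-1.30 ± 0.14 in clones, -2.06 ± 0.14 in normal calves, mean ± SD, n = 4 each). The difference was 0.76 on the log2 scale (SE 0.16, 95% interval 0.39 to 1.14, limma adjusted p = 0.128), or 1.70-fold. The other 2 IGF1 probes differed by 0.60 and 0.49 (adjusted p = 0.456 and 0.260). On the brighter of these clone 1 alone reached -3.04, while clones 2 to 4 lay between -4.39 and -4.16 and the normal calves between -4.66 and -4.20. On that probe normal calf 1 was within the range of clones 2 to 4, so the groups overlapped. The difference of IGF1 depended on the scale: centred on the spike-ins, the difference of the brightest probe was 0.08, and those of the other 2 probes were -0.08 and -0.19. With normexp and 75th percentile centring they were 0.38, -0.33 and -0.43. The groups overlapped on the brightest probe under both: 2 clones were above all normal calves with spike-in centring and 1 with normexp.

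IGF2, the main fetal growth factor of the pair, was covered by 11 probes that carry the same accession. The brightest measured 6.93 in clone 1 and 7.51, 7.73 and 7.69 in clones 2 to 4, against 6.99, 7.14, 7.03 and 6.99 in normal calves 1 to 4. Clones 2 to 4 were thus above every normal calf and clone 1 below every one. The mean was 7.47 ± 0.37 in clones and 7.04 ± 0.07 in normal calves (n = 4 each), a difference of 0.43 (95% interval -0.05 to 0.91, limma adjusted p = 0.439). All 11 probes had a positive difference, from 0.38 to 0.84, with adjusted p between 0.439 and 0.688. With quantile normalization 8 of the 11 remained positive, the brightest probe stood at -0.03 and the range was -0.09 to 0.69. With spike-in centring 5 of 11 were positive, from -0.30 to 0.16, on a scale where the median of all probes was -0.70.

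The pattern of clone 1 low and clones 2 to 4 high recurred on every IGF2 probe. The Y-linked signal parted clone 1 from clones 2 to 4 in the same way. That signal and this pattern therefore cannot be told apart among the clones, here or for the genes below that share it. Clone 1 was below all 4 normal calves on 11 of 11 probes, and clones 2 to 4 were above all 4 on 11 of 11. The gap between clone 1 and the mean of the other 3 clones ran from -0.72 on the brightest probe to -2.75 on the seventh brightest. The 2 brightest probes had the narrowest gaps, -0.72 and -0.83, the next 3 had gaps of -1.53, -1.55 and -1.73, and the 6 dimmer ones lay between -1.92 and -2.75. Clones 2 to 4 were close together on the fourth probe, at 7.12, 7.12 and 7.13, beside 5.58 in clone 1 and 6.08 to 6.37 in normal calves. On the sixth probe the values were 3.09 in clone 1, 5.95, 5.45 and 5.52 in clones 2 to 4, against 3.97 to 4.56 in normal calves. The place of clone 1 below all normal calves held on 11 of 11 probes with spike-in centring, quantile normalization and in the authors' value table, on 10 with median centring and on 9 with normexp and 75th percentile centring. The place of clones 2 to 4 above all normal calves held on 9 of 11 with quantile normalization and on 0 of 11 with spike-in centring.

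The receptor IGF2R was split in the same way. Its brightest probe measured 2.77 in clone 1, 4.94, 4.92 and 4.38 in clones 2 to 4, against 3.29, 3.83, 4.04 and 3.56 in normal calves 1 to 4. Clone 1 was the lowest of the 8 calves and the other 3 clones were the highest. The mean was 4.25 ± 1.02 in clones and 3.68 ± 0.33 in normal calves (n = 4 each), a difference of 0.57 (95% interval -0.50 to 1.64, limma adjusted p = 0.658). The other 2 probes differed by 0.42 and 0.72 with adjusted p of 0.807 and 0.653. Clone 1 lay below the mean of the other clones by gaps of -1.98, -2.39 and -2.66 on the 3 probes, and below all normal calves on each, also under each of the 6 other scalings tried. Clones 2 to 4 were above all normal calves on 3 of 3 probes as reported, but on 0 of 3 with spike-in centring and on 1 of 3 with normexp and 75th percentile centring. The sign of the brightest probe's difference turned to -0.10 with spike-in centring.

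H19, the non-coding imprinted neighbour of IGF2, gave the same order on its 3 probes. The brightest measured 1.95 in clone 1, 5.15, 4.80 and 4.63 in clones 2 to 4, against 2.99 to 3.33 in normal calves, and over all clones its difference was 0.96 (limma adjusted p = 0.573). The plot of IGF2, IGF2R, IGFBP6 and H19 in each calf sets these probes side by side.

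**Figure D2:**
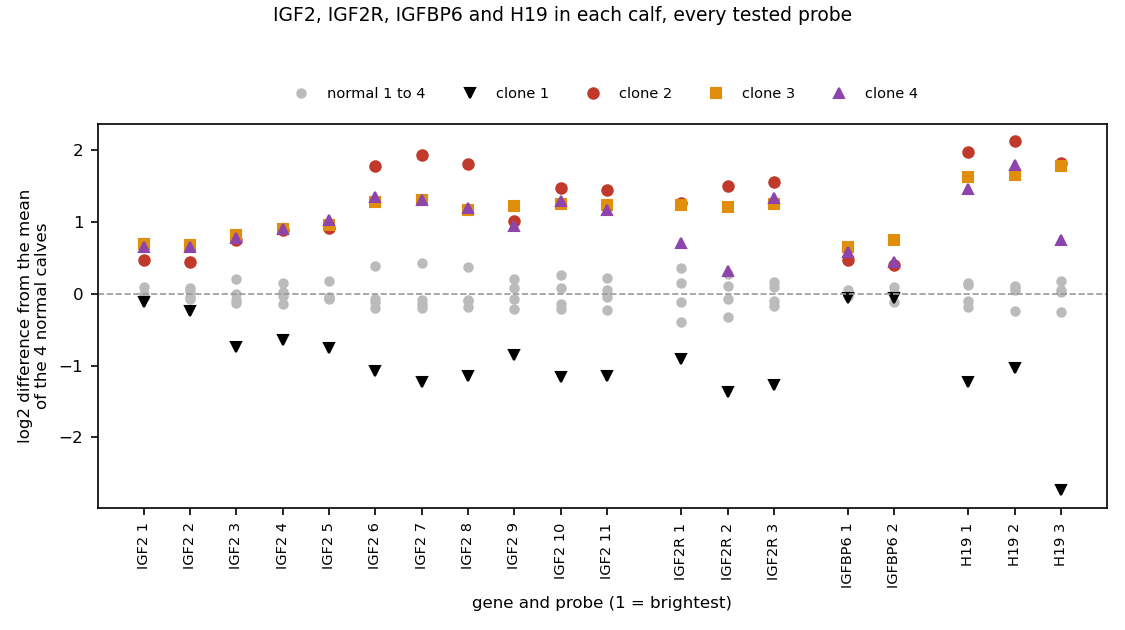
Log2 difference of each calf from the mean of the 4 normal calves (vertical) for each tested probe of IGF2, IGF2R, IGFBP6 and H19, ordered from the brightest probe of a gene (1). Clone 1 (black triangles) lies below all normal calves (grey) on all 11 IGF2, 3 IGF2R and 3 H19 probes, and clones 2 to 4 lie above them, on the scale of the 75th percentile.

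Without clone 1 the comparison of clones 2 to 4 with the normal calves called 5 of the 9 members, all higher: IGF1, IGF2, IGF2R, IGFBP5 and IGFBP6. Over all genes 3.74% were called higher in that comparison. Clone 1 was set apart after its values were seen. It was the lowest clone for IGF2, IGF2R, IGFBP5 and IGFBP6, so these calls are no separate support for the pattern. Leaving out clone 1 also leaves a Y-linked signal in all 3 remaining clones and in none of the 4 normal calves, so that signal and group cannot be told apart in these 5 calls. Leaving out any other single animal called 0 members. IGF2 was higher by 0.61 (SE 0.13, adjusted p = 0.0407) on its brightest probe, and all 11 of its probes passed, with differences from 0.59 to 1.52 and the smallest adjusted p at 0.0120. IGF2R was higher by 1.07 (SE 0.24, adjusted p = 0.0427), or 2.09-fold, with 2 of 3 probes called. Clones 2 to 4 were above all normal calves for 5 of 9 members and for 13.3% of all genes. Clone 1 was below all normal calves for 5 of 9 members and for 36.9% of all genes. The count of 5 rests on the scale too: for clones 2 to 4 it was 2 with quantile normalization, 1 with spike-in centring (IGFBP5) and 0 with normexp and 75th percentile centring.

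Among the binding proteins IGFBP5, which is held in extracellular matrix and made by mesenchymal cells, had the largest difference of the 9 genes. Its brightest probe measured -0.65, 1.24, -0.44 and 0.53 in clones 1 to 4, against -1.85, -1.64, -1.82 and -1.65 in normal calves 1 to 4. Every clone was above every normal calf, and the clones spread over almost 2 log2 units while the normal calves had an SD of 0.11. The means were 0.17 ± 0.88 and -1.74 ± 0.11 (n = 4 each), a difference of 1.91 (SE 0.40, 95% interval 1.01 to 2.81, limma adjusted p = 0.119), or 3.76-fold. The second probe gave -3.005, -0.89, -2.45 and -1.73 in clones and -4.16 to -3.71 in normal calves, again without overlap, and also a difference of 1.91 (adjusted p = 0.132). Without clone 1 the differences were 2.18 and 2.24 (adjusted p = 0.0233 and 0.0204). IGFBP5 kept its direction in 20 of 20 alternatives, from 1.23 to 2.59 with adjusted p from 0.000707 to 0.619, and passed in 2 of them, without clone 1 and with array weights. Many of these could not turn the sign. Filters, trended robust variances and the replicate block leave the difference at 1.91. Leaving out a calf cannot reverse groups that do not overlap. With spike-in centring both probes still separated the groups, with differences of 1.23 and adjusted p of 0.0547 and 0.0561. With normexp and 75th percentile centring the second probe did not separate them: its difference was 0.51 (adjusted p = 0.692), 1 clone was above all normal calves, and clone 1 stood at -0.33 against the normal mean.

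**Figure D3:**
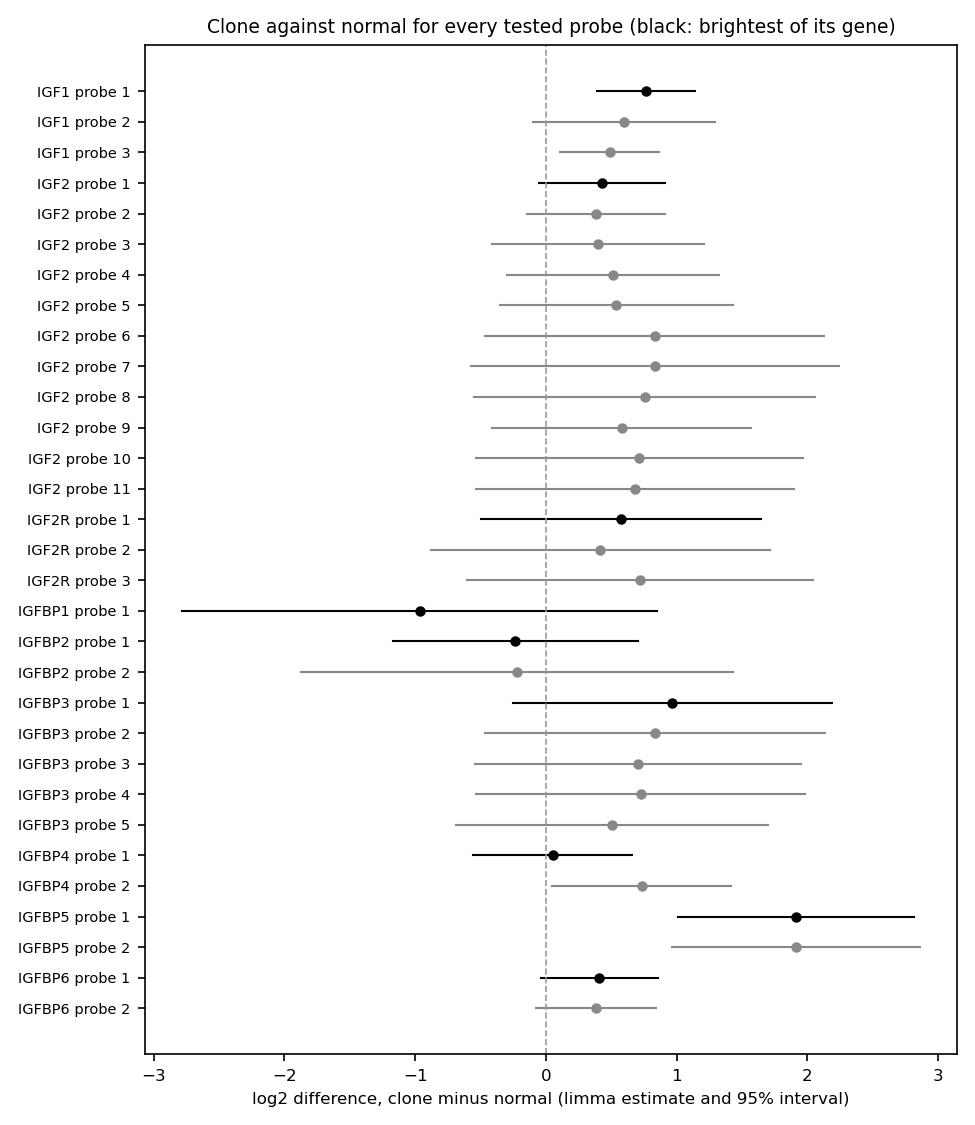
Log2 difference between clones and normal calves for the 31 tested probes, with the 95% interval of the limma fit as a line. Black marks the brightest probe of a gene. The intervals of both IGFBP5 probes, 2 IGF1 probes and the second IGFBP4 probe do not include 0, and none of the 31 passed after adjustment over all probes.

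IGFBP3, the main carrier of the ligands in blood, was high in clone 1 instead. Its brightest probe measured 4.18, 3.25, 1.38 and 2.95 in clones 1 to 4, against 1.48, 1.84, 2.12 and 2.46 in normal calves 1 to 4. Clones 1, 2 and 4 were above all normal calves and clone 3 was below all of them, an order that the second probe shared and that on the 3 dimmer probes held for clones 1, 2 and 3 only. The difference was 0.97 (SE 0.54, 95% interval -0.25 to 2.19, limma adjusted p = 0.494), and it was 1.49 without clone 3 (adjusted p = 0.0796) and 0.55 without clone 1 (adjusted p = 0.497). Its 5 probes all had positive differences, from 0.51 to 0.97, and on each of them clone 1 was the highest and clone 3 the lowest clone. With spike-in centring the brightest probe's difference was 0.29.

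IGFBP6, a binding protein that prefers IGF2, followed the order of IGF2 on its brightest probe. Its brightest probe measured 3.95 in clone 1, 4.48, 4.66 and 4.59 in clones 2 to 4, against 4.01, 3.99, 4.06 and 3.99 in normal calves 1 to 4. Clone 1 was just below the normal calves and the other clones were above them. The difference was 0.41 (95% interval -0.03 to 0.85, limma adjusted p = 0.422) over all clones and 0.57 without clone 1 (adjusted p = 0.0427). The second probe differed by 0.38 and, without clone 1, by 0.53 (adjusted p = 0.0748). On it clones 2 to 4 were above all normal calves, but clone 1, at 2.02, lay within their range of 1.95 to 2.17. With spike-in centring the brightest probe stood at -0.27.

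IGFBP4, which holds the ligands until the protease PAPPA cuts it, gave different answers on its 2 probes. The brighter probe measured 3.15, 2.74, 3.95 and 2.93 in clones 1 to 4, against 3.07 to 3.24 in normal calves, a difference of 0.05 (95% interval -0.56 to 0.66, limma adjusted p = 0.959). Clone 3 was the highest of the 8 calves, and clones 2 and 4 were below all normal calves. The other probe measured 3.05, 2.51, 3.82 and 2.47 in clones and 2.12 to 2.34 in normal calves, with every clone above every normal calf. Its difference was 0.73 (95% interval 0.05 to 1.42, adjusted p = 0.348). No direction is therefore given for the gene, and on the brighter probe the sign turned with quantile normalization, to -0.08, and with spike-in centring, to -0.63.

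IGFBP2, abundant in fetal life, was dim but well above background in all 8 calves. The brighter of its 2 probes measured -5.29, -5.08, -3.92 and -4.94 in clones 1 to 4, against -4.25, -5.07, -3.75 and -5.22 in normal calves 1 to 4. The groups overlapped throughout, and the difference was -0.23 (95% interval -1.17 to 0.70, limma adjusted p = 0.857). The second probe gave -0.22 (adjusted p = 0.931) with an SD above 1 in both groups. On the brighter probe the SD was 0.61 in clones and 0.69 in normal calves, and IGFBP2 and IGF1 were the 2 members whose SD was not larger in clones. Without normal calf 3 the sign of the difference turned, to 0.039.

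IGFBP1, which the liver secretes and which falls with insulin, was near the limit of detection. Its brighter probe cleared background in 1 clone and in 3 normal calves, and its other probe in 0 of 8 calves. The brighter probe measured -8.78, -5.02, -6.46 and -8.39 in clones 1 to 4, against -6.83, -5.70, -6.72 and -5.54 in normal calves 1 to 4. The fitted difference was -0.96 (95% interval -2.78 to 0.85, limma adjusted p = 0.661), with its size limited by background, and clone 2 was the highest of the 8 calves. The 6 other scalings gave differences between -1.64 and -0.05.

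**Figure D4:**
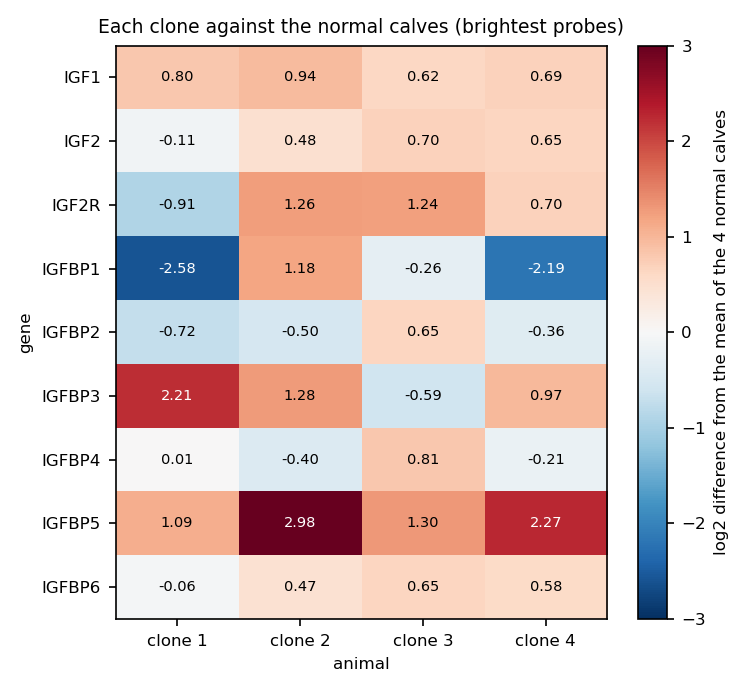
Log2 difference of each clone (columns) from the mean of the 4 normal calves for the brightest probe of each gene (rows), red above and blue below the normal mean. IGF1 and IGFBP5 are positive in all 4 clones, while IGF2, IGF2R and IGFBP6 are negative in clone 1 and positive in clones 2 to 4, as measured on the scale of the 75th percentile.

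The clones differed in their combination of members, as the map of each clone against the normal calves shows. Clone 1 combined the highest IGFBP3, at 2.21 above the normal mean, with IGF2R at -0.91. Clone 2 had the highest IGFBP5, at 2.98, and the highest IGF1, at 0.94. Clone 3 was the sole clone with IGFBP3 below the normal mean, at -0.59, and the sole one with IGFBP2 above it, at 0.65. It also had the highest IGFBP4. Clone 4 had IGFBP5 at 2.27, below clone 2, and IGFBP1 at -2.19, above the -2.58 of clone 1, on a probe near background. The SD was larger in clones than in normal calves for 7 of 9 members, and for 91.1% of all genes.

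Across the 8 calves IGF2 and IGFBP6 had a Pearson r of 0.98, IGF2 and IGF2R of 0.87, IGF1 and IGFBP5 of 0.88, and IGFBP2 and IGFBP3 of -0.68. These values describe 8 arrays that share a scale and include the difference between groups. Over 9619 other genes, those most like IGF2 were MB, ANKRD39 and ZNF148 (r from 0.988 to 0.994), those most like IGF2R were ANP32A, PDGFRB and PRDM1 (0.981 to 0.989), and those most like IGFBP6 were KLHDC1, PTPRF and ISYNA1 (0.985 to 0.988). POLR1D, PDCD1 and RTRAF were most like IGFBP5 (0.974 to 0.989), and SAT2, UQCC6 and IDH3G most like IGFBP3 (0.970 to 0.985). For IGF1 they were NACA, RPL28 and KLHL29 (0.961 to 0.970), for IGFBP4 SENP3, RAB5C and TXNDC11 (0.986 or more), and for IGFBP2 ASPHD1, GAT and TMEM216 (0.898 to 0.955). With 8 animals many genes reach such values: 256 genes had an r over 0.9 with IGF2 and 2 with IGFBP2.

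The other genes of the pathway were read from a list of 55, of which 34 had a matched probe and 32 were tested. INSR, PAPPA, STC2, IRS1 and IRS2 had no matched probe and were not analysed here. None of the 32 passed, in either direction (limma, lowest adjusted p 0.169), while 3 had an unadjusted p under 0.05, all with higher levels in clones, beside 6.37% of all genes in that direction. The median difference was 0.16, with 21 positive (65.6%) and 11 negative, beside 48.4% positive over all genes. PIK3R2, a regulatory subunit of the kinase that the receptors activate, differed by 1.19 (SE 0.30, adjusted p = 0.169), with 0.74, 1.42, 0.26 and 1.52 in clones and -0.42 to -0.02 in normal calves. Its second probe differed by 0.35 (adjusted p = 0.650) and the groups overlapped on it. STC1, a stanniocalcin that inhibits the proteases of IGFBP4, differed by 0.91 (SE 0.24, adjusted p = 0.188), with 1.79, 1.44, 1.49 and 0.82 in clones and 0.25 to 0.70 in normal calves. The kinase MAPK3 differed by 0.48 (adjusted p = 0.374) and was likewise higher in each clone than in any normal calf on its brightest probe, but not on its other 2.

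GHR, the growth hormone receptor that drives IGF1 in liver, showed the order of IGF2 and IGF2R. It measured -3.02 in clone 1, -0.66, -0.69 and -1.16 in clones 2 to 4, against -2.05 to -1.59 in normal calves, and differed by 0.38 over all clones (limma adjusted p = 0.798). Without clone 1 GHR and H19 were the 2 of 32 pathway genes that passed (adjusted p = 0.0371 and 0.00767), beside 3.74% of all genes called higher in that comparison. SOCS2, a feedback inhibitor of that receptor, differed by 0.46 (adjusted p = 0.495). The binding protein IGFBP7 differed by 0.31 (adjusted p = 0.624), and IGFALS, the partner of IGFBP3 in the blood complex, by -0.05 (adjusted p = 0.971). Of the RNA-binding proteins of IGF2 messenger RNA, IGF2BP2 differed by 0.59, IGF2BP1 by -0.12 and IGF2BP3 by 0.08 (adjusted p = 0.506, 0.923 and 0.927). GRB10, an imprinted adaptor that dampens the receptors, differed by 0.33 (adjusted p = 0.815), with clone 3 at 3.05 and the other 7 calves between 0.73 and 1.30. Of the remaining genes, GRB14 differed by -0.73, EIF4EBP1 by 0.35 and RPS6KB1 by 0.27 (adjusted p from 0.533 to 0.601).

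Levels of cell type markers differed between the groups and between clones as well. The summed linear signal of 6 fibroblast genes (COL1A1, COL1A2, COL3A1, PDGFRA, DCN and LUM, relative to the 75th percentile) was 102 to 163 in clones and 77.4 to 106 in normal calves, and 5 of the 6 had positive differences. In clones 1 to 4 it was 124, 163, 102 and 136. Among clones, IGF1 was likewise highest in clone 2 and lowest in clone 3. IGFBP5 was highest in clone 2 but lowest in clone 1, and IGFBP3 was lowest in clone 3 but highest in clone 1. Of 6 macrophage markers the 4 measured (CD68, CD163, C1QA and C1QB) all had negative differences, with sums of 46.9, 70.8, 202 and 54.3 in clones 1 to 4, against 161 to 246 in normal calves. Of 6 liver genes 5 were measured, and their sum was 32.1 to 58.0 in clones and 22.3 to 32.5 in normal calves, although 2 of the 5 had positive differences and their median was -0.08. TF, which is made outside the liver too, differed by 0.76, TTR by -0.22, APOA1 by -0.08 and FGB by -1.82. ALB lay between -7.84 and -3.92 in all 8 calves and FGB between -8.55 and -3.46. Of 5 heart and skeletal muscle genes the sum was 0.439 to 0.525 in clones and 0.455 to 0.549 in normal calves. Clone 1 had the lowest sums of 5 alveolar type I markers, 68.2 against 111.5 to 132.5 in normal calves, and of 4 endothelial markers, 10.6 against 23.7 to 28.9, while clone 3 had the highest endothelial sum of the 8 calves, 48.1. The 2 stomach genes measured, CYM and TFF2, summed to 0.0327 to 0.265 in clones and 3.74 to 19.5 in normal calves, with a median difference of -4.55. The 2 airway secretory markers measured had a median difference of -1.94, with sums of 1.28 to 5.21 in clones and 4.89 to 16.7 in normal calves. Of 5 ciliated cell markers 0 had a positive difference, with sums of 17.3 to 30.6 in clones and 22.6 to 38.2 in normal calves. The part of these cell types in the differences of the members was not tested.

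**Figure D5:**
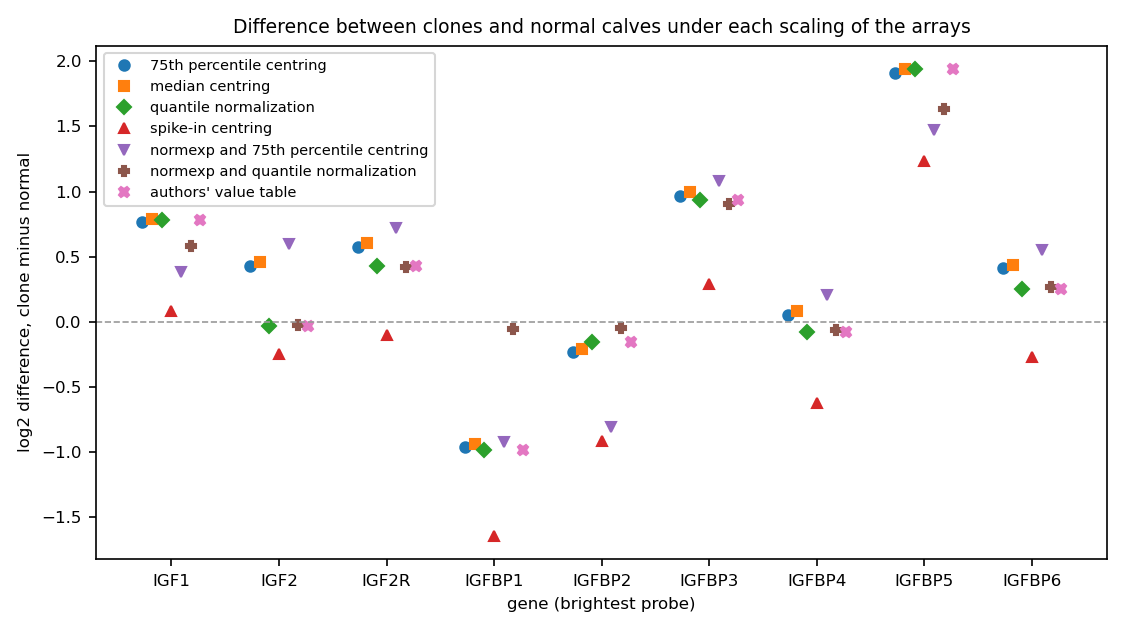
Log2 difference between clones and normal calves for the brightest probe of each gene under 7 ways of scaling the arrays. IGFBP5 is between 1.23 and 1.94 under all 7, while IGF2, IGF2R, IGFBP4 and IGFBP6 fall below 0 under spike-in centring, and IGF2 and IGFBP4 also with quantile normalization, with or without normexp, and in the authors' value table. Differences in the authors' value table nearly equal those with quantile normalization, so the 7 are not all separate.

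The plot of the differences under each scaling shows which members depend on it. Spike-in centring moved the median of all probes to -0.70 and normexp with 75th percentile centring moved it to -0.32, so differences under them are read against those medians. Against -0.70, the members under spike-in centring ran from -1.64 for IGFBP1 to 1.23 for IGFBP5, with IGF2 at -0.25 and IGF1 at 0.08. On their brightest probes IGF1, IGFBP3 and IGFBP5 were positive under all 7 scalings, and IGFBP1 and IGFBP2 were negative under all 7. With normexp and 75th percentile centring the other IGF1 probes stood at -0.33 and -0.43. The dimmest IGFBP3 probe stood at -0.16 there and at -0.17 with spike-in centring.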

How the data were processed

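Lung RNA of 4 cloned and 4 normal calves was measured on 1-colour Agilent arrays, with groups read from the titles of the samples. The deposited intensity of each spot was written by Agilent Feature Extraction 10.7.3.1, per the file headers (10.7 in the submitters' processing notes), with background subtracted and no normalization between arrays. The authors' deposited value table holds log2 values whose columns share 1 distribution, correlated with the scanner values at r of 0.9995 or more, keep their direction and have medians of 7.89. No source used here names the step that made them alike.

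Control spots and outlier spots (2 to 21 of 43803 per array) were left out. The 75th percentile of an array was subtracted from its log2 intensities, and spots of a probe were averaged. Of 43653 probes, 35636 were well above background on at least 4 of 8 arrays and were tested. Accessions were matched without versions to bovine RefSeq genes (assembly ARS-UCD2.0), which named 23492 probes. The array design names Btau_3.1, so no coordinates are given. The brightest tested probe stood for a gene. Clones were tested against normal calves in limma 3.58.1 under R 4.3.3 (lmFit and eBayes, group only, 2-sided, Benjamini-Hochberg over all tested probes). The fit was checked on simulated data with the same spread in both groups, which does not cover the larger spread among these clones. The files hold median but no mean spot signals, so normexp (offset 50) used medians. Alternatives covered scaling, background correction, filters, weights, the fit and leaving out each animal. Other scalings without clone 1 were added after seeing the data. The number of arrays limits the precision.

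Members and lists were chosen with earlier results of these data known. Genes named were all members, 14 pathway genes whatever their values (9 of them tested), the 8 other pathway genes with the smallest p (some are not reported here), and the 3 genes most like each member. Their other probes, the marker genes given and PLAGL1 were looked at after seeing the data. Replicate numbers were shared between groups, but deviations of same-numbered calves correlated at 0.09, 0.10, -0.20 and -0.10, so they were not taken as pairs.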

Additional observations from a re-analysis of the deposited data

Results flagged for a closer look

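Values far from the other 3 of their group, by the gap to the nearest animal against the range of the group, were found in 11 of 62 combinations of probe and group, a limit that chance passes in about 1 in 20 groups. Probes of a gene are not independent, so these are not 11 separate events. The share over all probes of the arrays is not given here, so the count is not read as particular to the members. For IGF2, clone 1 was far below the other clones on 6 of 11 probes, at 5.92, 5.58, 4.98, 1.93, 1.03 and 0.61. For IGF2R, clone 1 was far below the others on the dimmest probe, at -5.39. On the second IGF1 probe clone 1 was far above the other clones, at -3.04, and normal calf 1 far above the other normal calves, at -4.20. On 2 IGF2 probes normal calf 3 was far above the other normal calves, at 5.91 and 3.33.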

How the results depend on the processing

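No member passed in 18 of the 20 alternatives to the analysis as reported. With array weights 6 members passed, all higher (IGF1, IGF2, IGF2R, IGFBP3, IGFBP5 and IGFBP6), with 7 pathway genes higher and 3 lower, and IGFBP4 turned to -0.27; that setting called 5595 probes higher and 5929 lower, against 17 and 46. Leaving out 1 animal gave 0 to 5 members higher, 0 to 2 pathway genes higher, and 4 to 1423 probes higher and 13 to 1139 lower, with the highest counts without clone 1; IGFBP2 ran from -0.53 to 0.039 and IGFBP4 from -0.20 to 0.20. Read from the brightest probe, or from the mean of all probes where that was the alternative, IGF1, IGFBP1, IGFBP3 and IGFBP5 kept their sign throughout. The filters, the trended robust variances and the replicate block could not have turned a sign, because they leave each fitted difference as it was. IGFBP1 gave no value under the filter on all 8 arrays. Quantile normalization turned IGF2 to -0.034 and IGFBP4 to -0.078, as did the authors' value table (-0.034 and -0.078) and normexp with quantile normalization (-0.022 and -0.061). The authors' value table gave nearly the same differences as quantile normalization for every member, so these are not separate alternatives. Spike-in centring turned IGF2 to -0.25, IGF2R to -0.105, IGFBP4 to -0.63, IGFBP6 to -0.27 and the median over members to -0.25, and called 66 probes higher, 10066 lower and 5 pathway genes lower. Probes called higher and lower numbered 7 and 18 with normexp and quantile normalization, 0 and 0 with normexp and 75th percentile centring (2278 at an unadjusted p under 0.05), 6 and 11 with the filter on all 8 arrays and 86 and 60 with trended robust variances. With the replicate number as a block, probes called fell to 3 higher and 10 lower and 0 members passed; the numbers do not pair the calves. For clones 2 to 4, chosen after seeing the data, members called higher were 5 with median centring, 2 with quantile normalization, 2 in the authors' value table, 4 with normexp and quantile normalization and 1 with spike-in centring. There IGFBP4 turned to -0.056 with quantile normalization, -0.056 in the authors' value table and -0.044 with normexp and quantile normalization, and spike-in centring turned IGF2 to -0.13, IGFBP3 to -0.18, IGFBP4 to -0.67 and IGFBP6 to -0.17. The cause of these changes was not tested. With 4 calves a group, the dim probes of IGFBP1 are limited by background. Those of IGFBP2 were dim too, but well above background in all 8 calves.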

Other observations

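The 2 probes of IGFBP4 were closer to each other in clones than in normal calves. The log2 signal of the brighter minus that of the other probe came to 0.09, 0.22, 0.14 and 0.46 for clones 1 to 4. For normal calves 1 to 4 it came to 0.78, 0.99, 0.91 and 0.94. All 4 clones were below all 4 normal calves in this quantity, which does not change with any centring of the arrays. It was chosen after its values were seen and was not tested. PLAGL1, an imprinted transcription factor that acts on IGF2, had clone 1 at 1.17, clones 2 to 4 at 2.49, 1.78 and 2.24 and the normal calves at 1.38 to 1.92 on its brightest probe (limma adjusted p = 0.671). Clone 3 thus lay within the range of the normal calves. Clone 1 was the lowest of the 8 on this probe and on the next. On the dimmest it stood at -5.523, above normal calf 4 at -5.527. Over all genes clone 1 was below all normal calves for 36.9%.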
